A study of Homo sapiens with 6 samples.

Results

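KLF10 and 9 further Krüppel-like factor genes were followed in 1205Lu cells, an established line of metastatic melanoma, after SOX10 overexpression. The 10 members were taken by gene symbol from a table of 23368 genes, and KLF10, KLF11, KLF2, KLF3, KLF4, KLF5, KLF6, KLF7, KLF9 and KLF13 were all present. The set was chosen by the measured fall of KLF10. Its level, scaled for library depth, was lower in the SOX10 libraries in every earlier fit of these data. The values of KLF10 between groups are therefore a description and carry no test. Of the 10 members 9 had enough reads for a test, and KLF2 did not.

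The SOX10 group consisted of 3 libraries from cells transiently transfected with pCMV6-SOX10, and the control group of 3 libraries from cells transfected with the pCMV6 vector. Each flask received 7.8 µg of plasmid DNA with FuGENE 6, a lipid reagent, and all cells were lysed 24 h later. All 6 samples therefore carry plasmid DNA and come from 1 cell line, and the labels do not give the share of cells that took up the plasmid. The series' design calls the libraries of a group biological replicates. RNA was measured in bulk, so fewer cells expressing a gene and less RNA per cell cannot be told apart.

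Krüppel-like factors are transcription factors that bind GC boxes and CACCC boxes through a block of zinc fingers at their C-terminal end. They differ mainly in the part in front of the fingers. KLF9, KLF10, KLF11 and KLF13 can recruit the SIN3A corepressor, KLF3 recruits the corepressor CtBP, and KLF2, KLF4, KLF5, KLF6 and KLF7 act largely as activators. Several members are quickly and transiently induced by growth factors, stress or hormones, among them KLF2, KLF4, KLF6 and KLF10. KLF10, also called TIEG or TGF-beta inducible early gene, and KLF9 are in addition outputs of the circadian clock in several tissues.

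The bases in front of the start of KLF4, KLF6 and KLF11 are shown because KLF4 had the fold change closest to that of KLF10, KLF6 the library pattern closest to it, and KLF11 is its nearest relative by subgroup. RefSeq promoter sequences (GRCh38.p14) were at hand for 8 of the 10 members, in 13 windows of 250 bases. KLF10 itself and KLF3 had none, so the motif counts below do not cover KLF10. KLF4 was read from chr9:107489770-107490019 (minus strand), KLF6 from chr10:3785210-3785459 (minus strand) and 1 of the KLF11 starts from chr2:10043579-10043828 (plus strand). Capitals mark the GC box GGGCGG and the E-box CACGTG, searched on both strands. The E-box is bound by clock factors and MYC.

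KLF4: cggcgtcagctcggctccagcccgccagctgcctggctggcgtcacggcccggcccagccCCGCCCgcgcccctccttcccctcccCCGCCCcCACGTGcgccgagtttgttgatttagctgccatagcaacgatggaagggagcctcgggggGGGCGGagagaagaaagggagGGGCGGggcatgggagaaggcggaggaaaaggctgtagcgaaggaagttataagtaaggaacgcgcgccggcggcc
KLF6: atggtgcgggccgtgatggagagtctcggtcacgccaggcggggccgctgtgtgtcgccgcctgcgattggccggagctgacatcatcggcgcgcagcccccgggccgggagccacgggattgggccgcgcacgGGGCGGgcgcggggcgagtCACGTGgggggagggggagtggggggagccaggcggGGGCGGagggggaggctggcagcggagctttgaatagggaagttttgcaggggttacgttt
KLF11: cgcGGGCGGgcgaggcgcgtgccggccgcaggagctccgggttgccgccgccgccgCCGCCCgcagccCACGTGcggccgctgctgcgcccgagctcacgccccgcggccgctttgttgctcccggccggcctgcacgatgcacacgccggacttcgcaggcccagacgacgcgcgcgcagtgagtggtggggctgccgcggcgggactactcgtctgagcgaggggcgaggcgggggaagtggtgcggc

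KLF4 held 4 GC boxes and 1 E-box, KLF6 2 GC boxes and 1 E-box, and this KLF11 window 2 GC boxes and 1 E-box. The other KLF11 window, chr2:10043971-10044220 (plus strand), is not shown and held 6 GC boxes and no E-box. Of the 13 windows 8 held a GC box and 4 an E-box, the fourth in KLF7. Over all 35116 RefSeq windows of this length 42.6% held a GC box and 6.34% an E-box. Windows of the same gene are not independent. The KLF4, KLF6 and KLF11 windows shown were 69.2%, 72.4% and 78.8% G and C, and the shares over all windows were not matched for this. The SOX motifs ACAAAG and ACAATG were present in 4 of the 13 windows (of KLF5, KLF7 and KLF11, the last in both of its windows), and in 21.2% of all windows. A CArG box, the site of serum response factor, was present in 1 of the 13 windows, of KLF7, and in 1.16% of all windows. Such matches are letters in a window and do not show binding.

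The libraries were shallow and differed in depth between groups. The reads assigned to genes ranged from 2544420 to 4167393 in the SOX10 libraries and from 867917 to 2066520 in the control libraries, so that 1 read was worth 0.24 to 0.40 CPM in SOX10 libraries and 0.49 to 1.15 CPM in control libraries. CPM are counts per 1000000 reads that a library had in genes with enough reads for a test, after TMM scaling. This scaling sets the bulk of genes level between libraries. SOX10 itself had 21.7, 18.7 and 34.6 CPM in SOX10 libraries and 16.6, 20.8 and 21.5 CPM in control libraries. The groups overlapped, and the log2 fold change of 0.35 (SE 0.27) had an adjusted p of 0.927 by the quasi-likelihood test of edgeR, so SOX10 reads did not check the labels. Of 12 melanoma markers S100B, S100A1 and ERBB3 were abundant, while TYR, DCT, MLANA and TYRP1 had 4 to 9 reads in all libraries together and GPR143 had 0. Fibroblast markers summed to 100.9 to 173 CPM in SOX10 libraries and 115 to 149 CPM in control libraries, mostly from PDGFRA, with LUM at 0. Leukocyte and endothelial markers summed to 5.89 to 8.38 CPM in SOX10 libraries and 7.74 to 9.75 CPM in control libraries, with CD3E at 0.

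The level of KLF10 was lower in every SOX10 library than in any control library. KLF10 had 52.5, 60.2 and 49.7 CPM in the SOX10 libraries and 96.2, 156 and 99.5 CPM in the control libraries. The SOX10 libraries lay close together, and control replicate 2 stood well above the other controls. These values rested on 196, 151 and 205 reads in SOX10 libraries and 87, 135 and 204 reads in control libraries. The mean was 54.1 ± 5.47 CPM in SOX10 libraries and 117 ± 33.5 CPM in control libraries (SD, n = 3 each). This is a log2 fold change of -1.10 (SE 0.17), or 0.47 times the control level. Leaving out control replicate 2 gave -0.86 (SE 0.16) and leaving out control replicate 3 gave -1.22 (SE 0.19), the ends of the range over the 18 alternatives run. Reads outside genes numbered 93.5, 121 and 122 per 100 assigned reads in SOX10 libraries and 125, 135 and 97.0 in control libraries, with the most in control replicate 2. With these reads as a covariate the log2 fold change of KLF10 was -1.05 (SE 0.15). GENCODE release 29 lists no other gene on the exonic bases of KLF10.

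**Figure D1:**
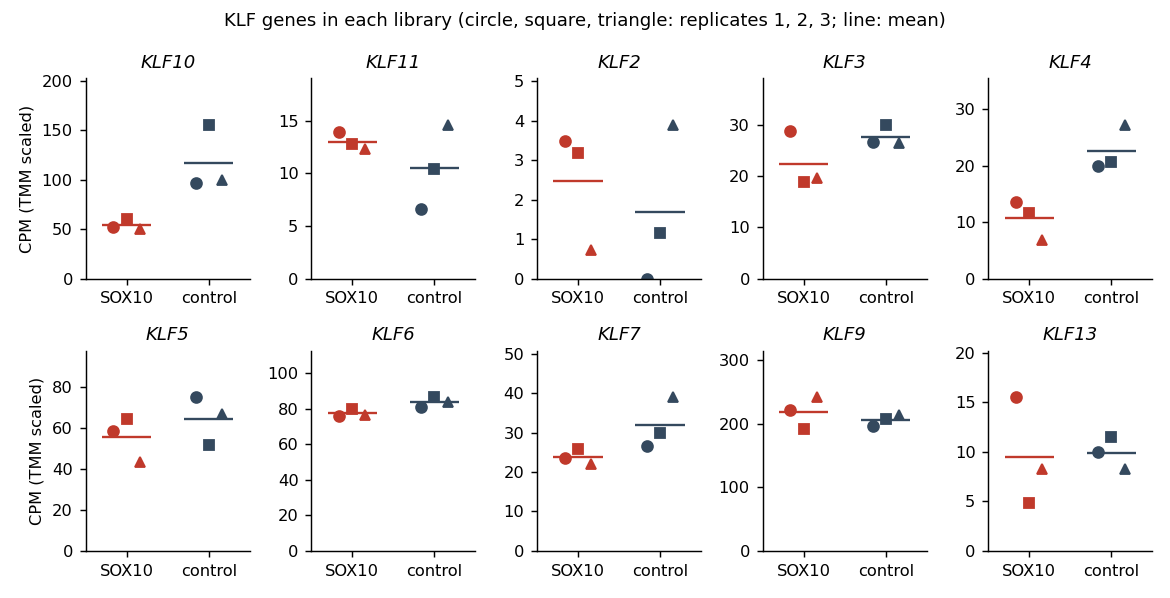
Level of each KLF gene in CPM (vertical axis, each panel starting at 0) in the 3 SOX10 libraries and the 3 control libraries; circles, squares and triangles are replicates 1, 2 and 3 and lines are means. KLF10 lies between 49.7 and 60.2 CPM in SOX10 libraries and between 96.2 and 156 CPM in control libraries, while KLF9 overlaps between the groups.

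At an adjusted p under 0.05, 11 of 10678 tested genes were called lower and 1 higher by edgeR in SOX10 libraries, or 0.103% and 0.00937%. KLF10 is among the lower ones, as its choice implies, and none of the 8 other tested members was called in either direction. At an unadjusted p under 0.05 there were 2 of these 8, KLF4 and KLF7, against 6.23% of all tested genes. DESeq2 and limma-voom called none of the 8 either. The groups did not overlap for 3 of the 8, KLF4, KLF6 and KLF7, all lower in SOX10 libraries. Among all tested genes 11.8% had groups without overlap, and 6.03% had this with lower SOX10 values. The median log2 fold change of the 8 was -0.18, beside 0.0076 for all tested genes, and 5 of the 8 were negative, as were 5197 of the 10678 tested genes.

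Among the SIN3A-binding members, none of the 3 relatives of KLF10 was called, and the direction of KLF13 was unresolved. KLF11, or TIEG2, a repressor that is also induced by TGF-beta, had 13.9, 12.8 and 12.4 CPM in SOX10 libraries and 6.63, 10.4 and 14.6 CPM in control libraries. The SOX10 values fell inside the wide range of the controls, where control replicate 1 had only 6 KLF11 reads. The log2 fold change of KLF11 was 0.20 (SE 0.33), with a 95% confidence interval of the fold from 0.72 to 1.84. Leaving out control replicate 3 gave 0.62, and leaving out control replicate 1 gave -0.0027. In GENCODE release 29 KLF11 shares 9.07% of its exonic bases with a gene on the opposite strand. No source used here says whether reads were counted by strand, so reads of such a pair cannot be told apart.

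The number of KLF10 reads per KLF11 read, which does not depend on scaling between libraries, was 3.77, 4.72 and 4.02 in SOX10 libraries and 14.5, 15 and 6.80 in control libraries. Every SOX10 library was below every control library in this ratio, and control replicate 3 was nearest to them. The control ratios rested on only 6, 9 and 30 KLF11 reads, and the SOX10 ratios on 52, 32 and 51. Because the ratio contains the KLF10 values that chose the set, it is given without a test. Per kb of exon, KLF10 was 1.03, 1.13 and 0.97 times KLF6 in SOX10 libraries and 1.78, 2.69 and 1.77 times KLF6 in control libraries.

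KLF9, a glucocorticoid- and thyroid hormone-induced factor, was the most abundant member in every SOX10 and every control library. It had 222, 192 and 242 CPM in SOX10 libraries and 196, 208 and 214 CPM in control libraries. The control values lay inside the range of the SOX10 values. With 3103 reads over all libraries its log2 fold change of 0.087 (SE 0.12) was the most precise of the set, and the 95% confidence interval of the fold ran from 0.90 to 1.25. A fall of KLF9 as deep as the 0.47 times of KLF10 lies outside that interval. The adjusted p by edgeR was 0.942.

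KLF13, a factor of T cells and cardiac development, had few reads and a wide spread between SOX10 libraries. It had 15.5, 4.79 and 8.24 CPM in SOX10 libraries and 9.95, 11.5 and 8.29 CPM in control libraries, on 9 to 58 reads. SOX10 replicate 1 was the highest and SOX10 replicate 2 the lowest of all 6 libraries. The fold had a 95% confidence interval from 0.56 to 1.84, and the sign of the log2 fold change of 0.020 (SE 0.41) differed between alternatives.

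KLF3, the CtBP-binding repressor of the set, had 28.7, 18.7 and 19.6 CPM in SOX10 libraries and 26.5, 29.99 and 26.3 CPM in control libraries. SOX10 replicate 1 lay among the controls and the other SOX10 libraries below them. On the log2 scale the difference of KLF3 was -0.28 (SE 0.24), and its adjusted p was 0.929 in the edgeR test. Its antisense gene KLF3-AS1 covers 4.22% of its exonic bases in GENCODE release 29.

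KLF4 stood out among the activating members by the size of its difference. KLF4, a pluripotency and epithelial differentiation factor, had 13.7, 11.6 and 6.78 CPM in SOX10 libraries and 19.9, 20.8 and 27.3 CPM in control libraries. All SOX10 libraries were below all control libraries, with control replicate 3 the highest and SOX10 replicate 3 the lowest. The log2 fold change was -1.14 (SE 0.30), or 0.45 times the control level with a 95% confidence interval from 0.29 to 0.70. The adjusted p by edgeR over all genes was 0.248, so KLF4 was not called, although its fold change was as large as that of KLF10. It rested on 200 reads in all, against 978 for KLF10. Over the 18 alternatives its log2 fold change ran from -1.40 without SOX10 replicate 1 to -0.88 without SOX10 replicate 3, and its adjusted p from 0.05003 with the reads outside genes as a covariate to 0.986 with DESeq2. It was below the threshold in none of them.

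KLF4 is also abundant in keratinocytes, whose 7 listed markers summed to 7.23 to 15.7 CPM in SOX10 libraries and 13.7 to 20.8 CPM in control libraries. These sums overlapped, 1 of the 7 markers (KRT10) had enough reads for a test, none was called and none was at 0 in all libraries. The markers went both ways: KRT1, KRT8, KRT10 and DSG3 averaged lower in SOX10 libraries, and KRT5, KRT14 and CDH1 higher. KRT8 differed most, with means of 0.75 CPM in SOX10 libraries and 4.44 CPM in control libraries, on 21 reads in all. The part of such cells or reads in the KLF4 values was not tested.

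**Figure D2:**
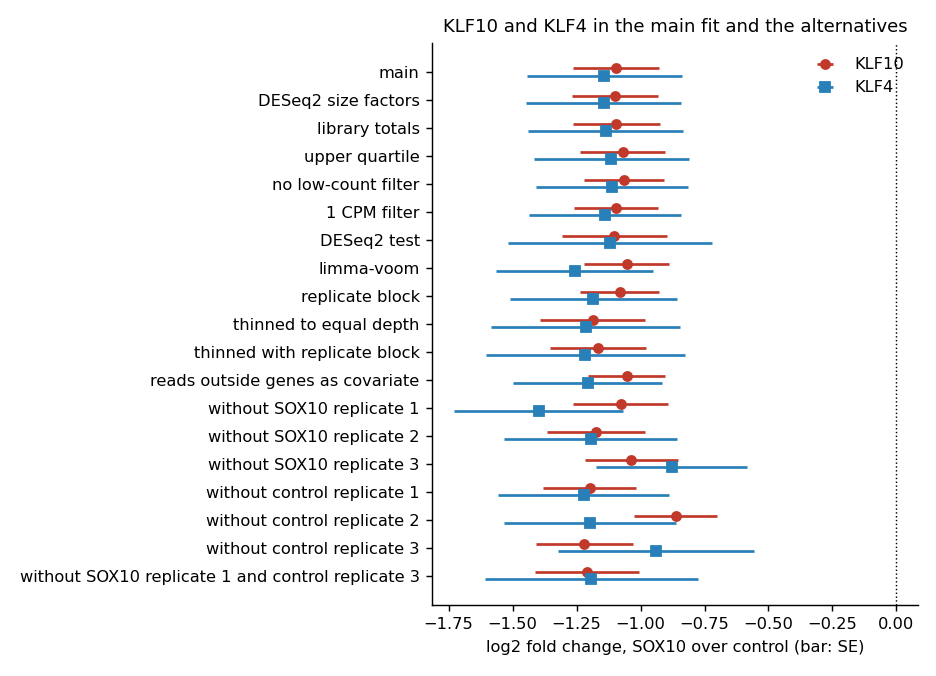
Log2 fold change of KLF10 (circles) and KLF4 (squares), SOX10 over control, in the main fit and 18 alternatives (rows), with bars of 1 SE. All values lie left of 0, KLF10 from -1.22 to -0.86 and KLF4 from -1.40 to -0.88, with wider bars for KLF4.

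KLF7, an activator of neuronal genes, had 23.6, 25.9 and 22.0 CPM in SOX10 libraries and 26.5, 29.99 and 39.0 CPM in control libraries. The groups did not overlap, but SOX10 replicate 2 and control replicate 1 lay next to each other. For KLF7 the log2 fold change was -0.47 (SE 0.22), edgeR's adjusted p was 0.774, and the 95% confidence interval of the fold ran from 0.53 to 0.99.

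KLF6, a factor induced by injury and growth signals, varied little within either group. It had 76.1, 79.8 and 76.5 CPM in SOX10 libraries and 80.7, 86.5 and 83.9 CPM in control libraries. The groups did not overlap, yet the gap was narrow and the fold of 0.92 had a 95% confidence interval from 0.76 to 1.12. The adjusted p of KLF6 by edgeR was 0.936. KLF5, an activator of proliferation in epithelia, overlapped, with 58.6, 64.2 and 43.6 CPM in SOX10 libraries and 75.2, 51.9 and 66.8 CPM in control libraries. Its log2 fold change was -0.24 (SE 0.18) and its adjusted p by edgeR 0.927.

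KLF2, an activator best known from endothelium and T cells, was too rare for the test. It had 13, 8 and 3 reads in SOX10 libraries and 0, 1 and 8 reads in control libraries, which is 3.48, 3.19 and 0.73 CPM in SOX10 libraries and 0, 1.15 and 3.90 CPM in control libraries. The groups overlapped, and the count of 0 in control replicate 1 allows up to 3.32 CPM, by counting error only. Where the low-count filter was left out or set at 1 CPM, edgeR gave KLF2 a log2 fold change of 0.21 (SE 0.82) and 0.17 (SE 0.86), and DESeq2 gave 0.35 (SE 1.15), none of them called. Standard errors of this size leave the direction of KLF2 unresolved.

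**Figure D3:**
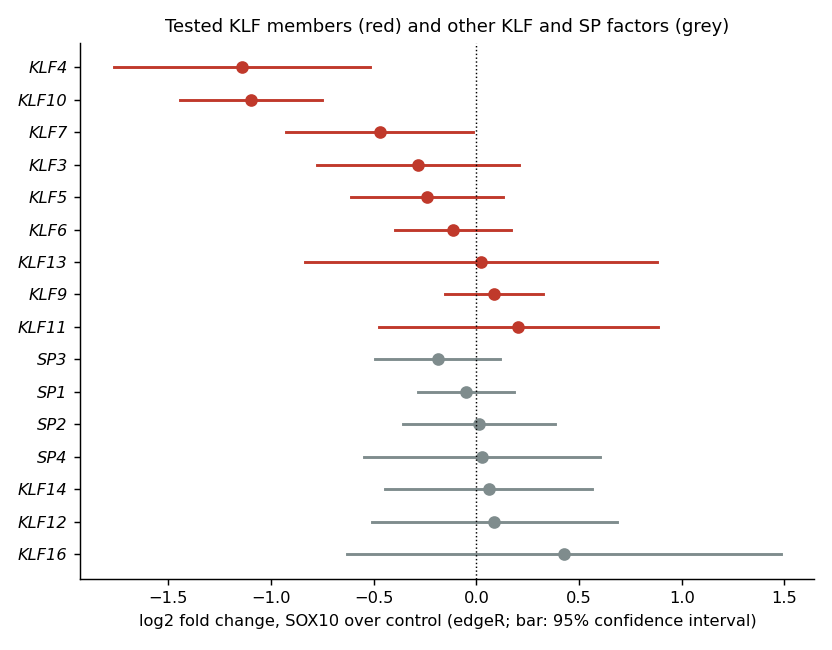
Log2 fold changes, SOX10 over control (horizontal axis), of the 9 tested KLF members (red) and of 7 tested other KLF and SP factors (grey), with 95% confidence intervals from edgeR. KLF4 (-1.14) and KLF10 (-1.10) lie furthest to the left; the bar of KLF10 is a description, since KLF10 chose the set.

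Levels between genes were compared as CPM per kb of exon (GENCODE release 29, basic transcripts). In control cells KLF9 came first at 39.7 ± 1.76 and KLF10 next at 29.3 ± 8.36 CPM per kb (SD, n = 3 each). The control values of KLF10 entered its choice, so its rank is a description. Their control ranges met, since control replicate 2 had 38.9 CPM per kb of KLF10 and control replicate 1 had 37.8 CPM per kb of KLF9. KLF5 at 17.2 ± 3.14 and KLF6 at 14.0 ± 0.49 CPM per kb followed and overlapped each other, but lay below all KLF10 values. KLF4 at 7.72 ± 1.38 was below KLF6 and above KLF3 at 4.61 ± 0.34 CPM per kb in every control library. KLF7, KLF11, KLF13 and KLF2 averaged 3.69, 2.46, 1.44 and 0.83 CPM per kb, and each overlapped its neighbour in this order, as KLF7 did KLF3.

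In SOX10 cells the order of mean levels per kb had KLF5 above KLF10, KLF3 above KLF4 and KLF11 above KLF7, each the other way round in control cells. KLF10 averaged 13.5 ± 1.37 CPM per kb in SOX10 libraries and 29.3 ± 8.36 in control libraries (SD, n = 3 each), and in SOX10 libraries its range overlapped those of KLF5 and KLF6. KLF4 averaged 3.64 ± 1.20 CPM per kb in SOX10 libraries and 7.72 ± 1.38 in control libraries, and overlapped KLF3 in SOX10 libraries. Of the summed level per kb of the 10 members KLF10 took 12.6%, 15.4% and 12.9% in SOX10 libraries and 21.3%, 30.5% and 20.2% in control libraries. KLF9 took 41.3%, 37.9% and 48.6% in SOX10 libraries and 33.6%, 31.5% and 33.6% in control libraries. The sum contains the KLF10 values that chose the set, so a lower KLF10 raises the shares of the other members. The shares are given without a test, and the level of KLF9 itself overlapped between the groups.

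**Figure D4:**
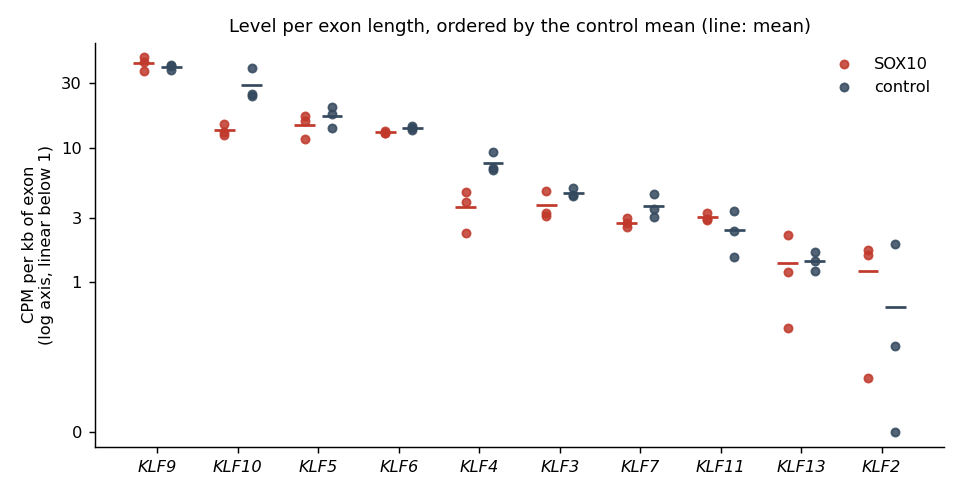
CPM per kb of exon (vertical axis, logarithmic above 1 and linear below) of the 10 KLF genes in 3 SOX10 libraries (red, left of each pair) and 3 control libraries (dark, right), with lines at the means. KLF9 is highest in both groups, and KLF10 averages 13.5 in SOX10 libraries and 29.3 in control libraries.

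The members differed in how closely their library values followed KLF10. Over the 6 libraries the Pearson correlation of log2 CPM with KLF10 was 0.95 for KLF6 and 0.80 for KLF4, and from -0.42 to 0.69 for the other 7 members. After the group means were taken out it was 0.84 for KLF6 and 0.028 for KLF4: KLF10 and KLF6 were both highest in SOX10 replicate 2 and control replicate 2, whereas KLF4 was highest in SOX10 replicate 1 and control replicate 3. KLF6 had SDs of only 2.02 CPM in SOX10 libraries and 2.90 CPM in control libraries, on 73 to 316 reads per library. Differences of this size are within counting error, so the order of the KLF6 replicates is unresolved. The correlations are descriptions over 6 libraries that share depth and group, with no test.

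Among 6624 other tested genes averaging at least 20 CPM, the 5 whose log2 CPM followed KLF10 most closely were NDEL1, RSBN1L, COPS6, TIPARP and MICAL3, with correlations from 0.989 to 0.995 over the 6 libraries. Since KLF10 itself differs between the groups, this choice favours genes with lower SOX10 values, and their group differences are a description only. They ran from a log2 fold change of -0.091 for COPS6 to -1.01 for TIPARP. By deviations from the group means, the 5 closest genes were EXOC2, RBBP5, ILF2, STARD7 and COX7C, and none of these 5 was called between groups.

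No other Krüppel-like or SP factor was called. Of 16 such genes 7 were tested, 0 were higher and 0 lower, 0 had an unadjusted p under 0.05 or groups without overlap, and their median log2 fold change was 0.027. SP3, which competes with SP1 at GC boxes, had a log2 fold change of -0.19 (SE 0.15), KLF16 0.43 (SE 0.51) on 74 reads, and SP1, the ubiquitous GC box activator, -0.051 (SE 0.11). KLF8 and SP9 had no reads in any library. Of 15 cofactors of these factors and ligases that degrade them, all were tested and none was called. ITCH, a ubiquitin ligase that acts on KLF10, had -0.27 (SE 0.12) and the coactivator EP300 -0.22 (SE 0.10), with adjusted p-values by edgeR of 0.766 and 0.783.

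The inputs known for these factors were read from 4 lists. Of 15 tested TGF-beta ligands, receptors and SMAD pathway genes 0 were called in either direction, with a median of -0.057. SMURF2 and SMURF1, ubiquitin ligases for SMADs and receptors, had log2 fold changes of -0.37 (SE 0.16) and -0.24 (SE 0.14). Of 6 tested genes of the ERK5 and MEF2 route, which induces KLF2 and KLF4 in endothelium, 0 were called and 5 were negative, with a median of -0.21. MEF2D had -0.50 (SE 0.21) and MAP3K3 -0.38 (SE 0.18), with adjusted p-values by edgeR of 0.723 and 0.785. Of 7 tested genes of the glucocorticoid receptor and its targets 0 were called. ERRFI1, a feedback inhibitor of EGFR, had 0.30 (SE 0.13) and the phosphatase DUSP1 -0.60 (SE 0.37).

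Clock genes were the only one of these lists with calls. Of 17 tested clock genes 2 fell and 0 rose by edgeR over all genes, against the 0.103% and 0.00937% of all tested genes given above, and the median was -0.12. NR1D1, a repressor of the clock activator ARNTL, had 49.0, 36.3 and 29.6 CPM in SOX10 libraries and 82.9, 208 and 124 CPM in control libraries. Among the controls it was highest in control replicate 2, as KLF10 was. Among the SOX10 libraries NR1D1 was highest in replicate 1, whereas KLF10 was highest in replicate 2. The log2 fold change of NR1D1 was -1.83 (SE 0.23) and its adjusted p by edgeR 0.000103. BHLHE41 had 45.8, 34.3 and 32.0 CPM in SOX10 libraries and 74.1, 93.4 and 60.5 CPM in control libraries. For this repressor of clock activators the log2 fold change was -0.98 (SE 0.19), and edgeR's adjusted p 0.0373. Its call was lost in 9 of the 18 alternatives. These falls were known when the list was written and are not independent evidence.

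Genes described as targets of the members were not called. Of 20 listed 15 were tested, 0 rose and 0 fell, 3 had an unadjusted p under 0.05 and 4 had groups without overlap, beside 6.23% and 11.8% of all tested genes. Of the 15, 9 were negative, as were 5197 of the 10678 tested genes, and the median was -0.12. MYC, a repression target of KLF11, had 95.8 CPM on average in SOX10 libraries and 128 CPM in control libraries, which is -0.39 (SE 0.14) as a log2 fold change, not called at an adjusted p of 0.526 by edgeR. EGFR, which KLF10 represses in breast cancer cells, had -0.60 (SE 0.22) and an adjusted p of 0.584.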

How the data were processed

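RNA from 6 samples of 1205Lu cells (3 SOX10, 3 control) was sequenced. Per the labels' protocols, libraries were made from 125 ng of RNA with NuGEN Encore Complete. Alignment and counting tools listed in the submitters' processing notes are TopHat 1.4.0 and HTSeq, beside DESeq and the hg19 build. No source used here gives the annotation, strand setting or overlap mode.

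The authors deposited raw counts of reads per gene as whole numbers, 1 column for each library. The 5 class rows that name no gene were left out of totals and tests (reads outside genes 39.4% to 46.9% of records, non-unique 17.7% to 19.1%, ambiguous 0.435% to 0.551%). Assigned reads ranged from 867917 to 4167393, and 3 reads, the limit allowed by a count of 0, correspond to 0.73 to 3.46 CPM (counting error only). Replicate pairs differed by more than sampling noise (chi-square per degree of freedom at least 1.98). The labels do not say how the biological replicates were separated, so p-values measure the spread between these samples.

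The test was edgeR 4.0.16 (R 4.3.3), quasi-likelihood, TMM, filterByExpr (minimum count 10, total 15), no covariate, two-sided, Benjamini-Hochberg over 10678 genes at 0.05. Fold changes carry a prior count of 0.125, log2 CPM for correlations one of 2. Standard errors come from the F statistic. On counts simulated for this comparison over 10488 genes the test called 64 of the 100 genes with 2-fold changes, 95 of the 100 with 4-fold changes and 11 of 10297 without one. The rule for named genes takes all members, called genes of each list and the 2 with the smallest p (3 for other KLF and SP factors), and the 5 genes most like KLF10. Any other gene was named with its values known. Alternatives used DESeq2 1.42.0, limma 3.58.1, other scalings and filters, thinning, a covariate, a replicate block and left-out libraries. The members and lists were chosen with earlier results of these data known. GENCODE release 29 gave exon lengths and RefSeq the promoters, both on GRCh38, so they gave no coordinates for the counts.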

Additional observations from a re-analysis of the deposited data

How the results depend on the processing

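The log2 fold change of KLF10 ran from -1.22 to -0.86 over the 18 alternatives; that it passed the threshold in each restates how it was chosen. No other member was called in any alternative that tested it. The replicate numbers showed no sign of pairing the libraries. Same-numbered libraries had correlations of -0.051, -0.080 and -0.29 between their deviations from the group means over 6625 genes. Of the 6 libraries 0 correlated best with the library of its own number. The other combinations ran from -0.23 (SOX10 replicate 1 with control replicate 2) to 0.32 (SOX10 replicate 1 with control replicate 3). Deviations within a group sum to 0, so these correlations cannot settle whether pairs exist. With the replicate block 7 genes were called (12 in the main fit), and KLF10 had -1.08. Calls over all genes numbered 48 with no low-count filter, 43 with reads outside genes as a covariate, 7 after thinning to 867917 reads, 4 after thinning with the block, and 6 to 18 without single libraries or without SOX10 replicate 1 and control replicate 3, the library of each group with the fewest reads outside genes. The lowest count came without control replicate 1 and the highest without SOX10 replicate 1 or control replicate 2. Called genes on the lists numbered 2 and became 1 (NR1D1) with upper quartile scaling, limma-voom, the block or either thinning, and ran from 1 to 2 without libraries. The median log2 fold change of the other members (-0.18) ran from -0.38 without SOX10 replicate 1 to -0.095 without SOX10 replicate 3 when libraries were left out, and was -0.083 with no low-count filter, where KLF2 was included.

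The sign of KLF13 reversed to -0.017 with DESeq2, -0.075 with limma-voom, -0.11 with the block and -0.080 with the covariate, and ran from -0.67 to 0.30 without libraries. KLF11 ran from -0.0027 to 0.62 without libraries. The cause was not tested. KLF2 and KLF13 had the fewest reads of the members, 33 and 140 in all libraries together, and KLF13 was not tested after thinning.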
